A study of Rattus norvegicus with 12 samples.

Results

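A set of 10 acute phase and acute-phase-related genes were followed across the 12 livers: Lcn2, Wfdc21, Saa3, Saa4, S100a9, A2m, Stat3, Orm1, Hp and Fgb. The platform annotation tied 13 of the 31099 probe sets of the array to these 10 genes, and 9 of the genes had at least 1 probe set assigned to them alone. The only probe set for Saa4, 1379744_at, is also assigned to another gene and is given by its ID. Of the 13 probe sets, 12 passed the filter on dim signals. A probe set of Fgb, 1388266_at, did not, with scores between -0.501 and -0.361 on the 12 arrays. The genes were chosen with these livers' differences from control in view, the rises of Wfdc21 and Lcn2 among them, so every difference of these genes from control below is a description without a test, and so is their difference between myclobutanil and propiconazole, which uses the same myclobutanil livers.

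The livers came from adult male Sprague-Dawley rats, 10 weeks old, which were dosed by gavage every 24 h over 72 h. The daily dose was 300 mg/kg for both myclobutanil and propiconazole and 175 mg/kg for triadimefon, and the labels do not state what the control rats received. Each of the 4 groups held 3 rats, and each liver was hybridized to its own Affymetrix Rat Genome 230 2.0 array. All 3 compounds are triazole fungicides, made to block the fungal sterol demethylase. Each value is a quantile-normalized score on a log-like scale. Since its log base is unknown, differences are given as score units rather than fold changes, and the scores of different probe sets are not set against each other.

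The acute phase response is the change in the liver's secreted proteins that follows infection or tissue injury. Cytokines of the interleukin 6 type bind receptors that contain the gp130 subunit, Janus kinases then phosphorylate the transcription factor STAT3, and STAT3 drives genes such as A2m and Fgb. Cytokines of the interleukin 1 type act through NF-kappaB and C/EBP factors and drive genes such as Orm1 and the serum amyloid A genes. In the rat, A2m is known as a strongly induced acute phase gene of the liver.

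An order with all 3 myclobutanil arrays above all 3 control arrays was shown by 10.2% of all probe sets. It was shown by those of a group of 4 genes, namely Lcn2, Wfdc21, Saa3 and S100a9. The 250 bases before their RefSeq starts (assembly GRCr8) are shown because these are the members that stood together in that group. Capitals mark matches to the C/EBP motif TTGCNNAA or to the kappaB consensus, each searched on both strands with the STAT motif TTCNNNGAA. The regions are chr3:36081781-36082030 for Lcn2 (minus strand), chr10:69125086-69125335 for Wfdc21 (plus strand), chr1:106358431-106358680 for Saa3 (minus strand) and chr2:178490623-178490872 for S100a9 (minus strand).
Lcn2: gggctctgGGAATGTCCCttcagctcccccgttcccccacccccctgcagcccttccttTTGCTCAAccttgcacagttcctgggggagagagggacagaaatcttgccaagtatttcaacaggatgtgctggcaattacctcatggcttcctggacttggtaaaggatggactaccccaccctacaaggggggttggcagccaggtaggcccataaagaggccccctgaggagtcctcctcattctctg
Wfdc21: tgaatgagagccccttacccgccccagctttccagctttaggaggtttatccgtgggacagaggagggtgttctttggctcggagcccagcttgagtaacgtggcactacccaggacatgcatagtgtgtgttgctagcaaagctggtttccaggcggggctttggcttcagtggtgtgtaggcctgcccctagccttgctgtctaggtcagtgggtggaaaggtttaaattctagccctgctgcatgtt
Saa3: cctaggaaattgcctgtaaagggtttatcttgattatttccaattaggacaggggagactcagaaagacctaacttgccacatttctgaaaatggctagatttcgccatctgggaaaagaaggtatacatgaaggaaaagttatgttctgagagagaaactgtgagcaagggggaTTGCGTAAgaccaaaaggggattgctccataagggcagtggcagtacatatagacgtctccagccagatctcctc
S100a9: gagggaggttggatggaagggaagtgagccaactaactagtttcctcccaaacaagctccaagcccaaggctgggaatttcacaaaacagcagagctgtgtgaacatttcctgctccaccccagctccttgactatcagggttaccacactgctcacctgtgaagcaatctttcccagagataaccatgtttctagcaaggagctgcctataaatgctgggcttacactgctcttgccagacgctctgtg

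The Lcn2 window held 1 kappaB match, beginning 242 bases before the start, and 1 C/EBP match, beginning 191 bases before it, with no overlap between them. The Saa3 window held 1 C/EBP match, beginning 75 bases before the start, and the windows of Wfdc21 and S100a9 held no match to any of the 3 motifs. Matches also lay in windows of other members, with 1 C/EBP match for Orm1 and 1 STAT and 1 C/EBP match for Fgb, and none for Stat3. Among 33469 windows of the same length over all annotated genes, 9.22% held the C/EBP motif, 6.33% the kappaB consensus and 7.67% the STAT motif. A match describes letters in a window and is not evidence of a bound site.

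Myclobutanil replicate 1 was the array least like the rest. It had a median deposited score of 0.157, while the remaining 11 ranged from 0.0182 to 0.0552, and it correlated with them at a median of 0.927, a value that lay between 0.962 and 0.982 for each of the 11. Values without it are given beside some of the results, not all. In myclobutanil livers the markers of Kupffer cells, the resident macrophages of the liver, were also lower: their summed score over 8 genes ran from 1.67 to 6.54 in myclobutanil livers, 8.53 to 9.62 in propiconazole livers, 8.30 to 9.51 in triadimefon livers and 8.95 to 10.2 in control livers. Clec4f, Cd5l, C1qa, C1qc and Adgre1, 5 of the 8, passed limma as lower with myclobutanil, where 2.25% of all genes passed. With propiconazole or triadimefon 0 of the 8 passed, beside 1.68% and 0.836% of all genes. In bulk liver, fewer cells of a type and less RNA per cell cannot be told apart, and the part of these cells in the results on the acute phase genes was not tested. Hepatocyte markers were present throughout, but after quantile normalization their summed score over 11 genes was lower with myclobutanil. It ran from 31.8 to 34.0 in myclobutanil livers, below the 34.3 to 35.1 of control livers. In propiconazole livers it ran from 33.7 to 35.1 and in triadimefon livers from 34.8 to 35.3, and both overlapped with control. The lowest sum, 31.8, was that of myclobutanil replicate 1. Many of these genes are bright, and the sums are given for this scaling only, so whether they would be lower under another scaling was not tested. With myclobutanil 0 of the 11 had a difference above 0, and the median difference was -0.151. The 11 include Alb, the albumin gene, which scored 4.03 on every array after quantile normalization and so could not differ. The part of the lower hepatocyte score in the acute phase results was not tested. With myclobutanil 1 of these 11 passed limma, Cyp2e1, which was lower. Also passing as lower were 1 of 5 stellate cell markers, Lrat, and 1 of 4 endothelial markers, Kdr. Of the cholangiocyte and lymphocyte markers, 0 of 2 and 0 of 9 passed. Lrat and Kdr passed as lower with propiconazole too, at -0.399 ± 0.0690 and -0.640 ± 0.114 (limma adjusted p = 0.0231 and 0.0268). No other marker of these lists passed with propiconazole or triadimefon. The summed lymphocyte score ran from -0.275 to 0.0157 in myclobutanil livers, 0.0522 to 0.535 in propiconazole livers and 0.228 to 0.550 in triadimefon livers. All lay below the 0.558 to 0.737 of control livers, though the highest propiconazole and triadimefon sums came close to the lowest control sum. Many of the 9 lymphocyte genes scored near 0, with control means of -0.0850 for Cd3d and 0.119 for Nkg7, so a direction is not read from the sum. The summed cholangiocyte score over 2 genes ran from 0.802 to 0.904 with myclobutanil and 0.772 to 1.37 with propiconazole. Both ranges lay above the 0.428 to 0.611 of control livers. With triadimefon it ran from 0.607 to 1.15 and overlapped with control. Its 2 genes went opposite ways with myclobutanil, Epcam at 0.420 ± 0.150 and Krt7 at -0.0904 ± 0.0394 (limma SE).

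Lcn2 encodes lipocalin 2, a secreted protein that binds bacterial siderophores and so withholds iron. It scored 0.428, 2.58 and 3.37 in the 3 myclobutanil livers, -0.00605, 0.124 and 0.248 in the propiconazole livers, 0.00468, -0.0113 and 1.49 in the triadimefon livers and -0.0301, -0.0179 and 0.0270 in the control livers. Myclobutanil replicates 2 and 3 and triadimefon replicate 3 were far above the rest, myclobutanil replicate 1 was next, and the other 8 arrays lay at or below 0.248. The mean was 2.13 ± 1.52 with myclobutanil, 0.122 ± 0.127 with propiconazole, 0.494 ± 0.861 with triadimefon and -0.00698 ± 0.0301 in control (SD, n = 3 each). The difference from control was 2.13 ± 0.604 (limma SE) for myclobutanil, and 2.97 without replicate 1 or 1.52 without replicate 3. For triadimefon it was 0.501 ± 0.604, and 0.00362 without replicate 3, so 1 liver made up nearly the whole mean difference. For propiconazole it was 0.129 ± 0.604.

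Wfdc21 encodes a small secreted protein of the whey acidic protein family. Its scores were 2.52, 2.83 and 3.54 in myclobutanil livers, 1.38, 1.45 and 1.82 in propiconazole livers, 1.63, 1.93 and 2.41 in triadimefon livers and 1.21, 1.45 and 1.19 in control livers. All 3 myclobutanil and all 3 triadimefon livers lay above all 3 control livers, while the propiconazole livers overlapped with control. The differences from control were 1.68 ± 0.252 for myclobutanil, 0.269 ± 0.252 for propiconazole and 0.710 ± 0.252 for triadimefon (limma SE, n = 3 each). Leaving out 1 array at a time moved the myclobutanil difference between 1.41 and 1.87 and the triadimefon difference between 0.501 and 0.889. The highest triadimefon liver for Wfdc21, replicate 3, was also the one high for Lcn2.

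Saa3 encodes a serum amyloid A protein that in the mouse is made largely outside hepatocytes, in macrophages and fat cells among others. It scored 0.266, 0.137 and 0.394 in myclobutanil livers, -0.147, -0.0801 and -0.0928 in propiconazole livers, -0.140, -0.139 and -0.119 in triadimefon livers and -0.0934, -0.132 and -0.0756 in control livers. The 3 myclobutanil livers were above the other 9, which lay within a narrow band. This band is low on the array. As deposited, the control scores were -0.0975, -0.131 and -0.0688, below the medians of those arrays at 0.0416, 0.0451 and 0.0552. The difference of myclobutanil from control was 0.366 ± 0.0521 (limma SE), and 0.300 to 0.430 with 1 array left out.

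S100a9 encodes a subunit of calprotectin, a calcium-binding complex abundant in neutrophils. Its scores were 0.715, 0.185 and 1.06 in myclobutanil livers, 0.310, 0.0754 and 0.626 in propiconazole livers, 0.285, 0.176 and 0.0867 in triadimefon livers and -0.00716, 0.144 and 0.0387 in control livers. The myclobutanil livers were above control in all 3, though replicate 2 only narrowly, and the liver with little S100a9 in that group was one of those with much Lcn2. The difference from control was 0.593 ± 0.186 for myclobutanil, 0.279 ± 0.186 for propiconazole and 0.124 ± 0.186 for triadimefon. With 1 array left out it ran from 0.389 (without replicate 3) to 0.826 (without replicate 2) for myclobutanil, and from 0.134 (without replicate 3) to 0.408 (without replicate 2) for propiconazole. The partner subunit gene S100a8 was below the filter, with scores of -0.219, -0.181 and 0.427 in myclobutanil livers, -0.0732, -0.227 and 0.0836 in propiconazole livers, -0.141, -0.186 and -0.289 in triadimefon livers and -0.246, -0.254 and -0.279 in control livers. Of the 15 neutrophil markers listed, 8 had a probe set of their own and 2 of these, Mmp8 and Itgam, passed the filter. Their summed score ran from -0.135 to -0.0263 in myclobutanil livers and from -0.0873 to -0.0426 in propiconazole livers. Both ranges lay below the 0.000905 to 0.0527 of control livers. In triadimefon livers it ran from -0.0650 to 0.00555 and overlapped with control. Both genes scored low in all livers, Mmp8 from -0.0698 to 0.0834 and Itgam from -0.0811 to 0.0169, so a direction is not read from the sum. The share of neutrophil RNA in the Lcn2 and S100a9 scores was not tested.

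**Figure D1:**
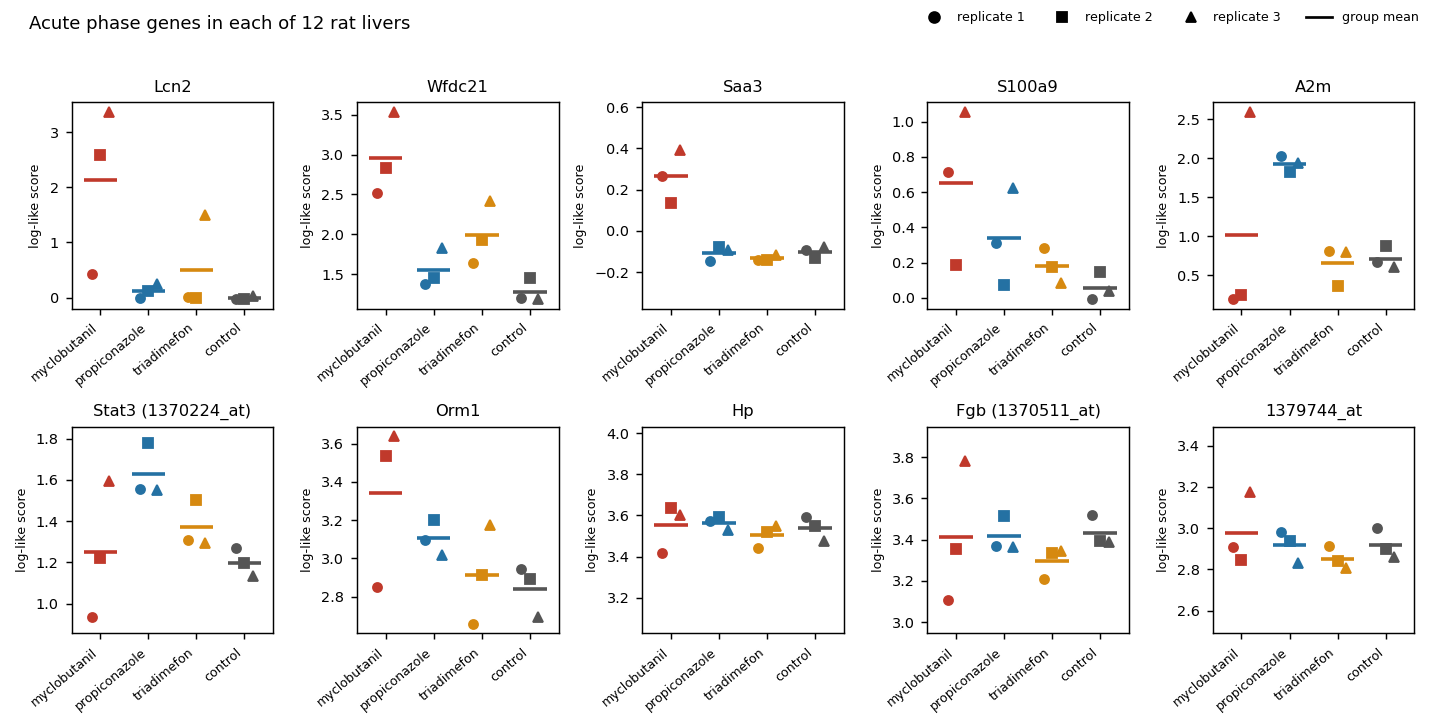
Score of each liver (y axis, log-like units after quantile normalization) for 10 probe sets of the acute phase genes, by group. Marker shapes stand for replicate 1 to 3, which number the livers within a group, and bars are group means of 3 livers. Axes differ between panels. Lcn2 reached 2.58 and 3.37 in 2 myclobutanil livers, and A2m was between 1.82 and 2.03 in all 3 propiconazole livers.

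A2m, which encodes a broad inhibitor of proteases, followed another order. Its scores were 0.191, 0.244 and 2.60 in myclobutanil livers, 2.03, 1.82 and 1.93 in propiconazole livers, 0.810, 0.365 and 0.798 in triadimefon livers and 0.664, 0.869 and 0.602 in control livers. All 3 propiconazole livers and myclobutanil replicate 3 were high, and the remaining 8 livers lay at or below 0.869. The difference from control was 1.22 ± 0.487 for propiconazole, with 1.14 to 1.29 when 1 array was left out. For myclobutanil it was 0.299 ± 0.487, and it turned to -0.491 without replicate 3, so its sign rested on 1 liver. For triadimefon it was -0.0537 ± 0.487.

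Stat3 was read by a pair of probe sets that ran in parallel. Probe set 1370224_at scored 0.936, 1.22 and 1.59 in myclobutanil livers, 1.56, 1.78 and 1.55 in propiconazole livers, 1.31, 1.50 and 1.29 in triadimefon livers and 1.27, 1.20 and 1.13 in control livers. Probe set 1371781_at scored 0.607, 0.809 and 1.13 in myclobutanil, 1.12, 1.35 and 1.10 in propiconazole, 0.935, 1.09 and 0.980 in triadimefon and 0.921, 0.863 and 0.843 in control livers. In both, all propiconazole and all triadimefon livers lay above all control livers, and myclobutanil replicate 3 was the one liver of its group above control. The propiconazole difference was 0.428 ± 0.141 in the first and 0.313 ± 0.117 in the second, and the triadimefon difference was 0.170 ± 0.141 and 0.125 ± 0.117. The 4 livers with high A2m had Stat3 scores of 1.55 to 1.78 on 1370224_at, while triadimefon replicate 2, at 1.50, had the low A2m score of 0.365.

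**Figure D2:**
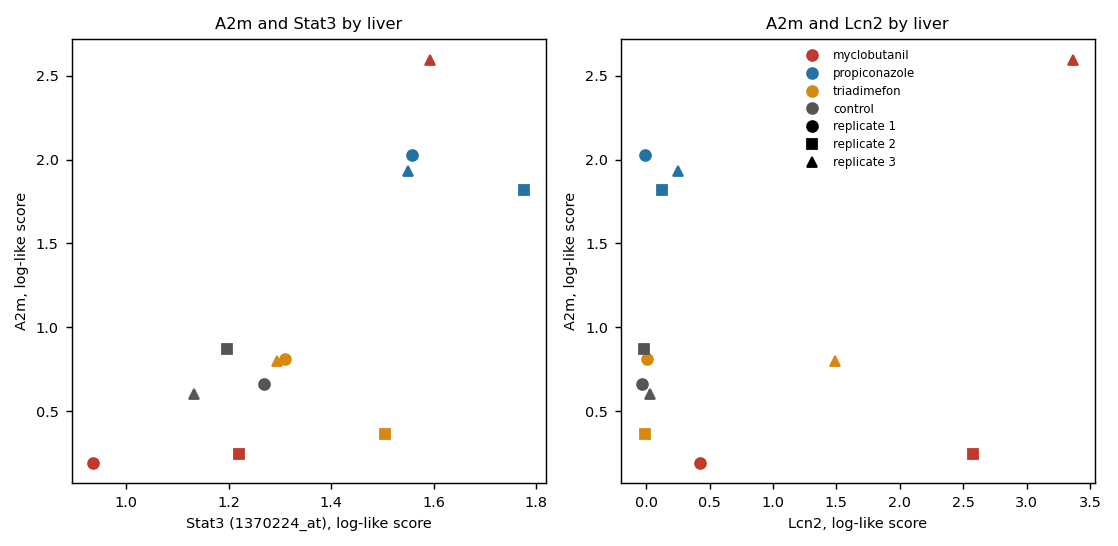
A2m score of each liver (y axis) against its Stat3 score on probe set 1370224_at (left) and its Lcn2 score (right), all in log-like units. Each point is 1 liver, colours are groups and shapes are replicates. The propiconazole livers had A2m scores of 1.82 to 2.03 with Lcn2 at or below 0.248, and myclobutanil replicate 2 had an Lcn2 score of 2.58 with A2m at 0.244.

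Orm1, Hp and Fgb encode classical plasma proteins of the acute phase. Orm1, alpha-1-acid glycoprotein and a carrier of basic drugs, scored 2.85, 3.54 and 3.64 in myclobutanil livers, 3.10, 3.20 and 3.02 in propiconazole livers, 2.66, 2.91 and 3.17 in triadimefon livers and 2.94, 2.89 and 2.69 in control livers. Its 3 propiconazole livers stood above all control livers by a small margin, while in the myclobutanil group replicates 2 and 3 were high and replicate 1 lay within the control range. The difference from control was 0.499 ± 0.187 for myclobutanil and 0.721 without replicate 1. It was 0.263 ± 0.187 for propiconazole and 0.0733 ± 0.187 for triadimefon. With the arrays only centred on their medians, the myclobutanil difference was 0.189 ± 0.125 and the propiconazole difference 0.0802 ± 0.125. The triadimefon difference was then below 0, at -0.0750 ± 0.125. On the deposited scale the propiconazole livers scored 2.93, 3.08 and 3.09 and overlapped with the control livers, at 2.90, 2.95 and 3.07.

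Hp, which encodes the haemoglobin-binding protein haptoglobin, scored 3.42, 3.64 and 3.60 in myclobutanil, 3.57, 3.59 and 3.53 in propiconazole, 3.44, 3.52 and 3.55 in triadimefon and 3.59, 3.55 and 3.48 in control livers, and the groups overlapped. The Fgb probe set 1370511_at, for the beta chain of fibrinogen, scored 3.11, 3.35 and 3.78 in myclobutanil, 3.37, 3.52 and 3.36 in propiconazole, 3.21, 3.33 and 3.35 in triadimefon and 3.52, 3.40 and 3.39 in control livers. The triadimefon livers were below all control livers by a narrow margin, and the other groups overlapped with control. Probe set 1371234_at, also assigned to Fgb, lay between -0.105 and 0.0962 in all 12 livers and showed no such order. Probe set 1379744_at ran from 2.84 to 3.17 in myclobutanil, 2.83 to 2.98 in propiconazole, 2.80 to 2.91 in triadimefon and 2.86 to 3.00 in control livers.

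For these bright probe sets the choice of scaling set the value. After quantile normalization the Hp difference from control was 0.0130 ± 0.0626 for myclobutanil, 0.0253 ± 0.0626 for propiconazole and -0.0355 ± 0.0626 for triadimefon. With median centring it was -0.376 ± 0.158, -0.298 ± 0.158 and -0.301 ± 0.158 for the same compounds in turn. The Fgb probe set 1370511_at moved likewise, with -0.0188 ± 0.133 for myclobutanil after quantile normalization and -0.378 ± 0.138 with median centring. On the deposited scale the Hp score of control replicate 3 was 4.12, against 3.18 to 3.74 on the other 11 arrays, and that array also held the highest score of the data set, 4.83. A direction for Hp, Fgb or 1379744_at is therefore not given.

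**Figure D3:**
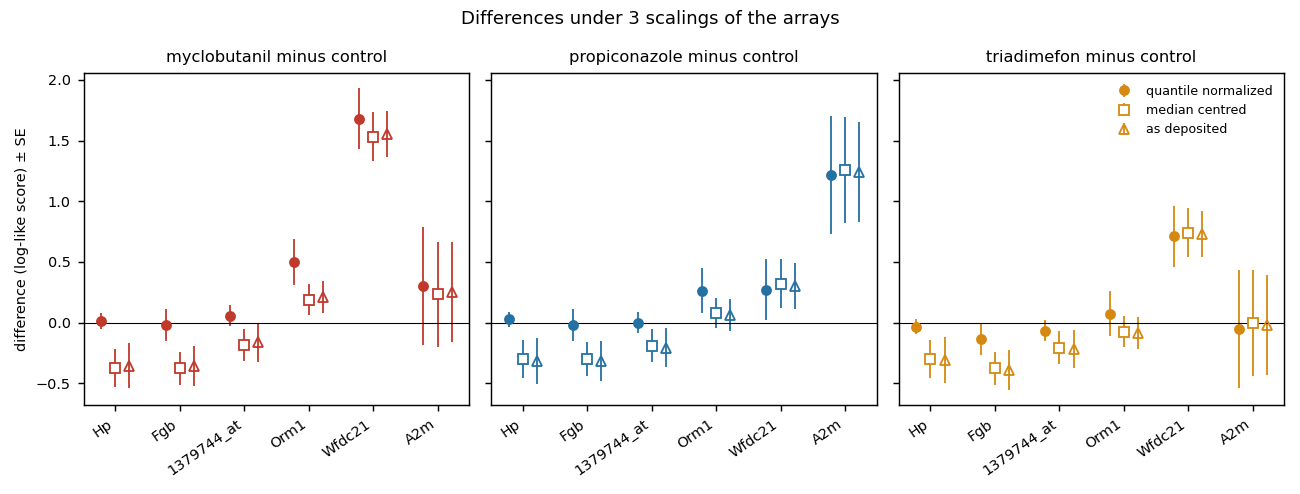
Difference of each compound from control (y axis, log-like units, bars are limma SE, n = 3 livers per group) for 6 probe sets under quantile normalization, median centring and the deposited values. Wfdc21 and A2m kept nearly the same differences under the 3 scalings, while Hp, Fgb (1370511_at) and 1379744_at were near 0 after quantile normalization and below 0 otherwise.

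Across the 12 probe sets that passed the filter, 2 were past an adjusted p of 0.05 for myclobutanil against control, those of Wfdc21 and Saa3, where 1.82% of all 21729 probe sets were. For propiconazole the count was 0, beside 1.43% of all probe sets, and for triadimefon it was 0, beside 0.769%. At an unadjusted p under 0.05 limma counted 5, 3 and 1 of the 12 for myclobutanil, propiconazole and triadimefon, beside 21.1%, 14.5% and 13.4% of all probe sets. Groups did not overlap for 4 of the 12 with myclobutanil (all higher, beside 10.2% of all probe sets), 4 with propiconazole (all higher, beside 12.1%) and 4 with triadimefon (3 higher, beside 12.5%, and 1 lower, beside 15.8%). The myclobutanil count was 0 without control replicate 3 and 4 without myclobutanil replicate 1. As the genes were chosen on these contrasts, nothing is read from the counts. The median difference over the 12 was 0.177, 0.196 and 0.0530 for the 3 compounds, against -0.0136, -0.0123 and -0.0128 over all probe sets. The 3 comparisons share their control livers.

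**Figure D4:**
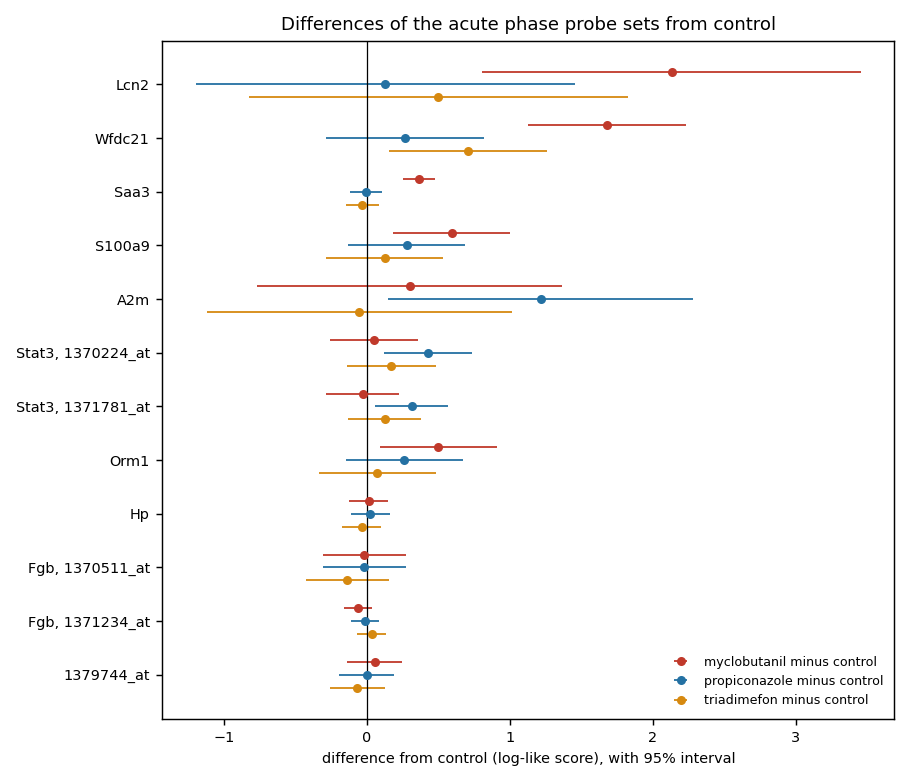
Difference of each compound from control (x axis, log-like units) with its 95% interval from limma for the 12 probe sets that passed the filter (y axis), n = 3 livers per group. The myclobutanil intervals of Lcn2, Wfdc21, Saa3, S100a9 and Orm1 and the propiconazole intervals of A2m and both Stat3 probe sets and the triadimefon interval of Wfdc21 lay above 0.

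Myclobutanil and propiconazole were given at the same dose, so their livers could be compared directly. Both carry the triazole ring, and they differ in that myclobutanil has a nitrile and a butyl chain and propiconazole a dioxolane ring. Of the 12 probe sets 0 passed limma over all 21729, and over all probe sets the share called was also 0%. At an unadjusted p under 0.05, 5 of the 12 passed, those of Lcn2, Wfdc21, Saa3 and both of Stat3, beside 10.1% of all probe sets. The genes were chosen with the values of these myclobutanil livers known, so nothing is read from the counts and the differences are given with intervals only. Lcn2 was 2.00 higher with myclobutanil (95% interval 0.678 to 3.33), Wfdc21 was 1.41 higher (0.856 to 1.96) and Saa3 was 0.372 higher (0.258 to 0.487). For Lcn2, Wfdc21 and Saa3 alike, every myclobutanil liver lay above every propiconazole liver, an order that 6.31% of all probe sets showed. With 1 array left out, the difference ran from 1.39 to 2.84 for Lcn2, 1.14 to 1.60 for Wfdc21 and 0.307 to 0.437 for Saa3, each lowest without myclobutanil replicate 3, and the number of the 12 that passed ran from 0 to 3.

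The A2m difference between the same compounds was -0.917 (95% interval -1.98 to 0.151), lower with myclobutanil. It was -0.516 without myclobutanil replicate 1 and -1.72 without replicate 3, so its size rested on single livers. The 2 Stat3 probe sets stood at -0.378 (-0.689 to -0.0679) and -0.342 (-0.597 to -0.0857). Without myclobutanil replicate 1 they stood at -0.220 and -0.222, and without replicate 3 at -0.556 and -0.484. For Orm1 the interval of the difference ran from -0.174 to 0.646, for S100a9 from -0.0941 to 0.723 and for Hp from -0.150 to 0.125, each spanning 0. Triadimefon was given at a lower dose and was not compared with the other compounds.

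Of 61 other measured genes of the acute phase response, 1 passed limma in any of the 3 comparisons with control. This was Apoa1, the main protein of high-density lipoprotein and a protein that falls in inflammation, which rose with propiconazole by 0.485 ± 0.0888 (limma adjusted p = 0.0278, n = 3 arrays per group). Apoa1 scored 3.53, 3.64 and 3.60 in propiconazole livers, 3.27, 3.56 and 3.55 in myclobutanil livers, 3.27, 3.44 and 3.51 in triadimefon livers and 3.20, 3.07 and 3.04 in control livers, and all 9 treated livers lay above control. Over all 11842 genes tested, 2.25% passed for myclobutanil, 1.68% for propiconazole and 0.836% for triadimefon. The Apoa1 call was lost with median centring, with the deposited values and when any 1 control or propiconazole array was left out, with 0 of the 61 genes then passing for propiconazole.

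Among 23 measured secreted proteins that rise in inflammation, none passed in limma, and 4, 6 and 1 did at an unadjusted p under 0.05 for myclobutanil, propiconazole and triadimefon, where 21.1%, 14.5% and 13.4% of all probe sets did. After quantile normalization their median difference from control was -0.0115, -0.00442 and -0.0122, close to the median over all genes of -0.0129, -0.0132 and -0.0155. Many of these genes are bright, like Hp and Fgb, for which the choice of scaling set the value. The medians are given for this scaling only, so a direction or its absence is not read from them. Itih3, a heavy chain of inter-alpha-trypsin inhibitor, stood at -0.228 ± 0.0606 with myclobutanil (limma adjusted p = 0.080), and the fibrinogen-like gene Fgl1 at -0.373 ± 0.106 with propiconazole (limma adjusted p = 0.125). Among 10 measured proteins that fall in inflammation, the 9 other than Apoa1 did not pass in any comparison. For Alb, among these 9, this is not a test result. It scored 4.03 on every array after quantile normalization, so its difference was 0 in each comparison. Alb is still counted in the 10 and in their medians. At an unadjusted p under 0.05 the counts were 5, 2 and 1 of the 10 (the same shares of all probe sets apply), and 4 genes, Rbp4, Fetub, Serpina6 and Igf1, had all 3 myclobutanil livers below control, beside 14.2% of all genes. The median difference was -0.113 for myclobutanil, -0.0452 for propiconazole and -0.00549 for triadimefon. Many genes of this list are bright too, and its medians are likewise given after quantile normalization only.

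Of 20 measured cytokine, receptor and signalling genes none passed limma, and 4, 1 and 4 did at an unadjusted p under 0.05 for the same compounds, beside 21.1%, 14.5% and 13.4% of all probe sets. Their medians were -0.0398, 0.0499 and 0.0432. Bcl3, an atypical inhibitor of NF-kappaB, stood at 0.465 ± 0.127 with myclobutanil, 0.468 ± 0.127 with propiconazole and 0.344 ± 0.127 with triadimefon (limma adjusted p = 0.0842, 0.110 and 0.269), and all 9 treated livers lay above control. Nfkbia, which encodes the NF-kappaB inhibitor I-kappaB-alpha, stood at -0.257 ± 0.0878 with myclobutanil (limma adjusted p = 0.137). The gene for the cytokine interleukin 6 itself was below the filter. Il6r, the interleukin 6 receptor gene, chosen here after its values were seen, scored 0.421, 1.11 and 0.887 in myclobutanil livers, 1.39, 1.43 and 1.28 in propiconazole livers, 1.54, 1.45 and 1.52 in triadimefon livers and 1.07, 1.27 and 1.20 in control livers. It differed by -0.559 ± 0.141 between myclobutanil and propiconazole (limma adjusted p = 0.293). Of 8 measured relatives of Wfdc21, Lcn2 and S100a9 none passed limma (1, 0 and 0 at an unadjusted p under 0.05), with Apom, a lipocalin of high-density lipoprotein, at -0.301 ± 0.131 for myclobutanil (limma adjusted p = 0.217) and S100a6 at 0.259 ± 0.129 for triadimefon (limma adjusted p = 0.419).

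**Figure D5:**
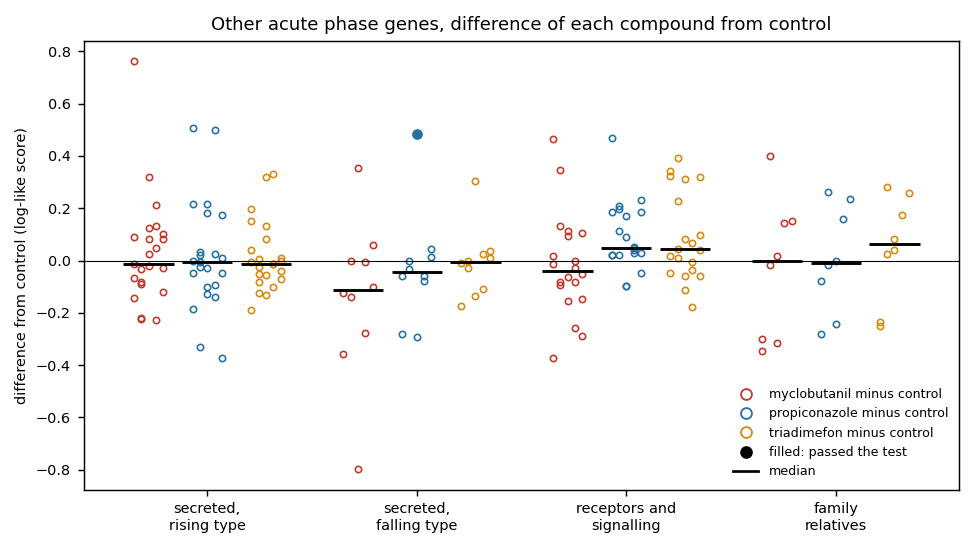
Difference of each compound from control (y axis, log-like units, n = 3 livers per group) for the other measured acute phase genes, in 4 lists. Each circle is 1 gene, a filled circle passed limma over all probe sets, and black bars are list medians. The only filled circle is Apoa1 with propiconazole at 0.485, and the list medians lay between -0.113 and 0.0626.

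Within groups, Lcn2 and Wfdc21 deviated together. After each group mean was subtracted, their Pearson correlation over the 12 livers was 0.836 (Spearman 0.664), and 0.689 without myclobutanil replicates 1 and 3, the livers farthest out for Lcn2. The same measure for Lcn2 was 0.899 with Orm1 (Spearman 0.699, and 0.729 without those livers) and 0.0426 with S100a9. Among the 11841 genes compared, a number that includes Lcn2 itself, 284 others were closer to Lcn2 than Wfdc21 was. The closest genes that are not members were Ttc3, Septin11, Nudt1, Plxna1 and Gnaq, at 0.950 to 0.964, and 0.819 to 0.907 without the same livers. The genes closest to Wfdc21 were Idi1 and Msmo1, enzymes of cholesterol synthesis, Pcolce, Col12a1 and Rab31, at 0.941 to 0.976, and 0.853 to 0.946 without myclobutanil replicate 3 and triadimefon replicate 3. These are descriptions over livers that share the group means and the normalization, and the genes were picked as the highest of all measured.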

How the data were processed

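RNA of 12 rat livers, 1 rat per array, was measured on Affymetrix Rat Genome 230 2.0 arrays. The authors deposited 1 score per probe set and array, on a log-like scale. Their log base, centring, normalization and software were not given in the sources used here. The tests had been planned for log values and were kept. The file holds no detection calls, so low scores could not be sorted by a call into expressed and background. The precision is limited by the 3 arrays per group. Of 31099 probe sets, 57 controls were left out, the remaining 31042 were quantile normalized, and the 30% with the lowest mean (9313) were removed, leaving 21729. Group means were fitted with limma 3.58.1 (lmFit and eBayes with a trend, R 4.3.3, 8 residual degrees of freedom), with Benjamini-Hochberg adjustment over all 21729 in each of 4 comparisons and a threshold of 0.05. For counts of genes, the brightest probe set stood for each of 11842 genes. No batch is given in the labels, and p-values measure the spread between rats.

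The members and the gene lists were chosen with earlier results of these data known, so the planned test of the members between myclobutanil and propiconazole is given as differences with intervals. In the lists, the genes named were those that passed or, where none did, the pair with the smallest p-values, other genes being marked as chosen after their values were seen. Probe sets were named from the platform annotation and promoters taken from RefSeq (GRCr8), with no entry used for A2m, Hp or Saa4. The fit was tested on simulated data. Alternatives were the deposited scores, median centring, other filters, a replicate block and leaving out each array.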

Additional observations from a re-analysis of the deposited data

Results flagged for a closer look

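Saa3 was singled out because all 3 myclobutanil livers were above the control mean (difference 0.366) while all 3 triadimefon livers were below it (difference -0.0324, smaller than its SE of 0.0521). The difference between these compounds was not tested, since their doses differ, and the triadimefon livers overlapped with the control livers.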

How the results depend on the processing

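The differences of the 12 probe sets from control moved by less than the SD between replicates in 584 recomputed values and by more in 22, mainly those of Hp, Fgb, 1379744_at and Orm1 under other scalings. The count passing for myclobutanil was 1 in place of 2 with the 50% dimmest left out, a setting that also left out the Saa3 probe set itself. The count ranged from 0 to 4 with 1 array left out. It ranged from 0 to 1 for propiconazole, 0 to 0 for triadimefon and 0 to 3 for myclobutanil against propiconazole. Of the other acute phase genes, 0 passed for propiconazole with the deposited scores and 0 with median centring, in place of 1, and leaving out arrays gave 0 to 4 for myclobutanil, 0 to 2 for propiconazole and 0 to 1 for triadimefon. Over all probe sets leaving out arrays gave 30 to 924 calls for myclobutanil, 36 to 969 for propiconazole, 6 to 611 for triadimefon and 0 to 29 between myclobutanil and propiconazole. In that last comparison the sign turned for Hp (-0.0566 to 0.0428), Fgb 1370511_at (-0.187 to 0.144) and 1379744_at (-0.0419 to 0.124). The cause was not tested. Replicate numbers showed no clear pairing of the livers. Of 18 same-number pairs, 3 correlated above 0.1 (range -0.494 to 0.495), and pairs with different numbers ranged from -0.418 to 0.532. These ranges cannot exclude a shared order or batch. With the replicate block the myclobutanil count stayed at 2, and the counts of the members in the other 3 comparisons at 0.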

Other observations

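Further acute phase genes, chosen after their values were seen, had single livers apart from their group. Lbp, which encodes the lipopolysaccharide-binding protein, scored 1.24, 1.93 and 2.84 in myclobutanil livers, 1.75, 2.00 and 1.49 in propiconazole livers, 1.13, 1.44 and 1.75 in triadimefon livers and 1.42, 1.24 and 1.06 in control livers. Timp1, an inhibitor of matrix metalloproteinases, was highest in myclobutanil replicate 3 (0.965) and triadimefon replicate 3 (0.869), the livers that also had the highest Lcn2 of their groups. Hamp, which encodes the iron hormone hepcidin, scored 1.32 in myclobutanil replicate 3, the lowest of the 12 livers. None of these 3 genes passed limma in any comparison with control.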
